A study of Mus musculus with 7 samples.

Results

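The genes that encode 5 receptors for steroid hormones were examined for binding of estrogen receptor beta (ERβ) in the mouse ovary. They were Esr1, Esr2, Nr3c1, Nr3c2 and Gper1, which were chosen by name, 5 of 21755 protein-coding genes of the GENCODE annotation on the autosomes and X. Each was taken as its gene body plus 50 kb on either side in the mouse assembly GRCm38 (mm10). The method was ChIP-seq, the sequencing of immunoprecipitated chromatin, in which DNA fragments held by an antibody are read and compared with the chromatin before that step (input). There were 3 ERβ ChIP libraries and 2 input libraries, all from ovaries of C57BL/6J mice that carried functional ERβ. Per the methods of the study, each ChIP library pooled 14 ovaries of 7 WT mice aged 4 to 16 weeks, and the mouse monoclonal antibody PPZ0506 was used. The animals behind the inputs were not described separately in the sources used here, so any p-value measured the spread between these libraries. The whole ovary was used, so the cell type that gave a signal could not be read from these data. The 2 ERβ ChIP samples from mice with deleted ERβ were not analysed here.

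Steroid receptors of the nuclear type are transcription factors that change shape when a hormone binds, associate with DNA as dimers and recruit coregulators. Esr1 encodes ERα and Esr2 encodes ERβ, the estrogen receptors of that family. In the ovary ERβ is mainly a protein of granulosa cells, which surround the oocyte, whereas ERα is mainly found in theca cells and stroma. Nr3c1 encodes the glucocorticoid receptor and Nr3c2 the mineralocorticoid receptor, which share a response element. Gper1 encodes a membrane G protein-coupled receptor that responds to estrogen and does not bind DNA.

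ERβ signal over input was found at the gene of ERβ itself and near Gper1. It was not found, by the same rule, at Esr1, Nr3c1 or Nr3c2. A 200-bp window was called where at least 2 of 3 ChIP libraries were over 4 times the mean of both inputs, with the input set to no less than its genome mean of 0.368. Adjacent windows, and windows with a gap of up to 200 bp, were joined into a site. Of 7049 such windows at fixed, non-overlapping positions in the 5 loci, 4 were called (0.0567%), against 5684 of 12796535 windows in the genome (0.0444%). They formed 3 sites, 2 at Esr2 and 1 at Gper1. By genes, 2 of 5 loci held a site, against 23.9% of all protein-coding gene loci. The loci were from 105 kb (Gper1) to 494 kb (Esr1) long, and the median over all protein-coding genes was 117 kb. The counts for the 5 genes were thus small and near the background, and they are given as a description of each locus.

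**Figure D1:**
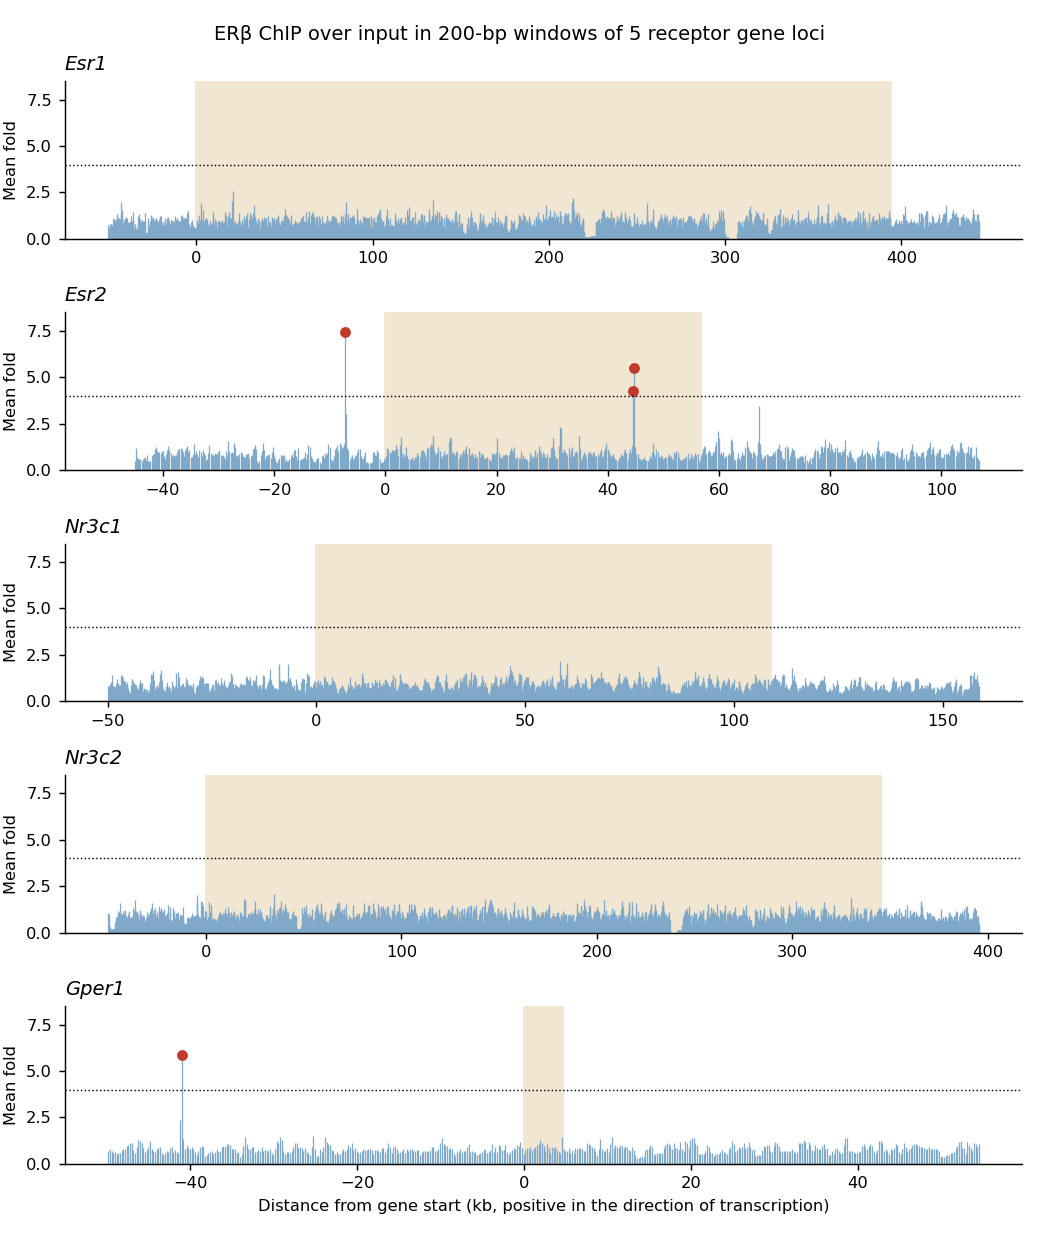
Mean fold of the 3 ERβ ChIP libraries over input (y axis) in each 200-bp window, plotted by distance from the gene start in kb (x axis), for the 5 receptor gene loci. Shading marks the gene body, red points mark the called windows, and the dotted line is drawn at 4-fold, although calls were made per library. The 4 called windows lie at Esr2 and Gper1, and no window of Esr1, Nr3c1 or Nr3c2 reaches 4-fold.

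The strongest signal of the group lay upstream of Esr2. When windows were moved in steps of 10 bp, the strongest one was chr12:76184359-76184558, 7.20 kb upstream of the start of Esr2, which is transcribed from the minus strand. No annotated transcript covered it, and Esr2 had the nearest start of any gene. It also fell in the 50 kb around Tex21, whose start was 62.3 kb away. The other Esr2 site was strongest at chr12:76132469-76132668, 44.7 kb downstream of the gene start. It lay in intron 6, 7 or 8 of Esr2, depending on the transcript. The nearest start of any gene was that of Gm7862, 20.1 kb away, and the nearest of a protein-coding gene was that of Esr2. This site also fell in the 50 kb around Syne2. The 3 sites are shown first by their DNA, together with the strongest window of Esr1, which was below the threshold. Each is 200 bases of the plus strand of GRCm38, and capitals mark the 13 bases closest to an estrogen response element (ERE), taken as GGTCANNNTGACC with N for any base.

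Esr2 upstream: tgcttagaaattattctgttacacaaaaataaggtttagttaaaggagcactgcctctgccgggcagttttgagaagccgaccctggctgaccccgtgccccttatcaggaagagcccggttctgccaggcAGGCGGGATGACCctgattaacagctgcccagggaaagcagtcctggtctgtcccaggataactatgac
Esr2 intronic: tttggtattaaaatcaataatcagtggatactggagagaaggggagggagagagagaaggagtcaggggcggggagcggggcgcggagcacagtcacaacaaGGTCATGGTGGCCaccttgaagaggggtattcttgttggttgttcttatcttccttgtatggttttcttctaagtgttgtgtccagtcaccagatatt
Gper1: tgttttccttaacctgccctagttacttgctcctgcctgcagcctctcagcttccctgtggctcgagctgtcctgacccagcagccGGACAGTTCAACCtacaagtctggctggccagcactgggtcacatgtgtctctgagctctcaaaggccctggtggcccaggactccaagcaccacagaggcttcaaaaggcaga
Esr1: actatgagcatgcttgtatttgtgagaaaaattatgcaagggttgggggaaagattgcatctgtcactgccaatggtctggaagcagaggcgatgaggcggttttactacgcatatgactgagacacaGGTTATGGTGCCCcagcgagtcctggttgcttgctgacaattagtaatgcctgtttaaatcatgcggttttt

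Among the 3 sites, the intronic site of Esr2 alone held an ERE with at most 2 mismatches in the 10 fixed bases. Its element had 1 mismatch and was centred 8.5 bp from the middle of the window, at chr12:76132571-76132583. The same bases were part of an exact NR5A motif (CAAGGTCA), the sequence bound by the orphan receptors SF-1 and LRH-1, at chr12:76132568-76132575. The half-site AGGTCA lay inside it, so these 3 matches are overlapping descriptions of 1 stretch of DNA. The site also held the GATA motif AGATAA, on the minus strand, 50 bp from the middle. The upstream site of Esr2 and the Gper1 site had 3 mismatches at best, beyond the limit, and neither held AGGTCA, the NR5A motif, the GATA motif, the AP-1 motif TGANTCA or the glucocorticoid-type element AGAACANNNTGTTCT with at most 2 mismatches in 12 bases. Both held 2 copies of the 5 bases GGTCA when either strand was read, a motif counted after the sequences had been seen.

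For scale, 6.68% of all 200-bp windows of the genome held an ERE with at most 2 mismatches and 0.529% held one with at most 1. Among the 4019 sites of the genome, the shares in the strongest fixed window were 63.6% and 31.6%. The receptor gene sites were instead searched in windows moved in steps of 10 bp, so the shares are not strictly alike. The NR5A motif was in 1.09% of genome windows and 10.4% of sites, AGGTCA in 11.1% and 54.8%, and the GATA motif in 13.3% and 18.6%. At least 2 copies of GGTCA were in 4.53% of genome windows and 38.7% of sites. The AP-1 motif was in 5.93% of genome windows and 8.21% of sites, and the glucocorticoid-type element in 1.90% and 4.48%. All motifs were searched on both strands. A match is a match of letters and was not a test of binding by any factor.

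At the upstream site of Esr2, the mean normalised signal in the 200-bp window was 3.49, 5.02 and 4.43 in ChIP replicates 1, 2 and 3. It was 0.696 and 0.355 in Input replicates 1 and 2. The lowest ChIP library was thus above the highest input. The calling rule largely built in this separation, here and at the other sites, so it adds no support. The fold over input was 6.65, 9.55 and 8.43, with a mean of 8.21 ± 1.46 (SD, n = 3). Because the inputs differed here, the mean fold was 6.20 against Input replicate 1 alone and 11.7 against Input replicate 2 alone. The track names fall into 2 series, one with ChIP replicate 1 and Input replicate 1 and one with the other libraries. Within a series, the fold was 5.02 for ChIP replicate 1, 13.6 for ChIP replicate 2 and 12.02 for ChIP replicate 3.

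The intronic site of Esr2 was of similar height and had inputs that lay closer together. Its signal was 3.72, 5.02 and 4.23 in ChIP replicates 1, 2 and 3, and 0.620 and 0.701 in the inputs. The groups again did not overlap, which the calling rule favoured. The fold was 5.64, 7.61 and 6.41, with a mean of 6.55 ± 0.991 (SD, n = 3). Because its centre lay near the border of fixed windows, 2 adjacent ones were called at chr12:76132401-76132800. Their mean folds were 5.49 and 4.25, and the second was carried by ChIP replicates 2 and 3, with ChIP replicate 1 at 3.73-fold.

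Gper1 had its site at chr5:139381951-139382150, 41.1 kb upstream of the gene start. This position was closer to other genes. It lay in intron 1 of Gpr146, which encodes an orphan G protein-coupled receptor, 4.35 kb from the start of that gene, and at the same time in intron 2 of 3110082I17Rik on the other strand. In all, 6 protein-coding genes had the site in their body or the 50 kb around it: Gper1, Gpr146, 3110082I17Rik, C130050O18Rik, Cyp2w1 and Cox19. The data do not link the site to any of them. The signal was 3.10, 5.15 and 4.89 in ChIP replicates 1, 2 and 3, and 0.747 and 0.590 in the inputs. ChIP replicate 1 was the lowest of the ChIP libraries but still above both inputs, which the calling rule favoured. The folds were 4.64, 7.70 and 7.31, with a mean of 6.55 ± 1.67 (SD, n = 3). With a flank of 10 kb in place of 50 kb, this site was no longer counted and the Esr2 sites remained.

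**Figure D2:**
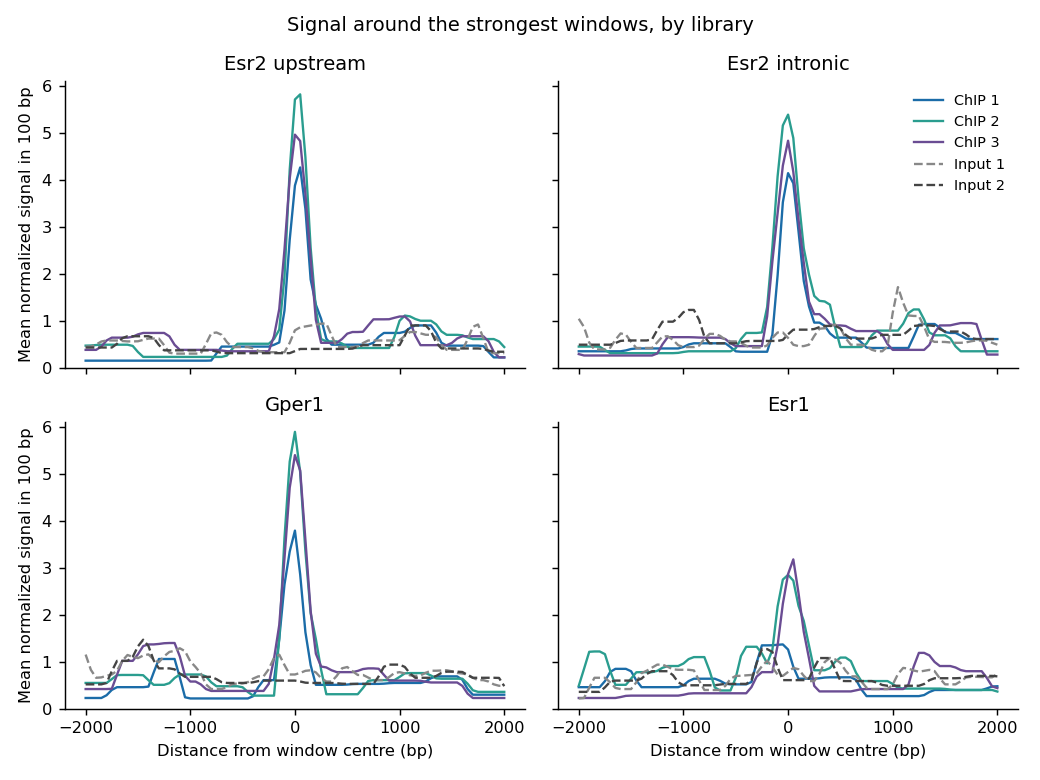
Mean normalised signal over 100 bp, read every 50 bp (y axis), against distance in bp from the centre of the strongest window (x axis), for the 3 sites and for the strongest window of Esr1. Solid lines are ChIP libraries and dashed lines are inputs. All 3 ChIP libraries peak at the Esr2 and Gper1 sites, and ChIP replicate 1 stays near the inputs at Esr1.

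The width of each strongest window was read at 0.5 of the height above the input mean. At windows that were not sites, it was 230 bp at Esr1, 200 bp at Nr3c1, 220 bp downstream of Esr2 and 450 bp at Nr3c2. The 3 sites were peaks about as narrow as most of these. Their width was 190 bp at the upstream site of Esr2, 230 bp at its intronic site and 210 bp at Gper1. GC content was 52.5%, 48% and 57.5% in the same order, and 2%, 18% and 0% of the bases were marked as repeats in the assembly. In all 3, ChIP replicate 2 had the highest and ChIP replicate 1 the lowest signal among the ChIP libraries. ChIP replicate 1 was also the sole ChIP library of its track-name series, so the series and the library cannot be told apart.

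Esr1 had no site. Its strongest window, chr10:4632093-4632292, lay in intron 1 of the gene, 20.6 kb from its start. The signal was 1.13, 2.74 and 2.71 in ChIP replicates 1, 2 and 3, and 0.785 and 0.610 in the inputs. ChIP replicates 2 and 3 were above both inputs, whereas ChIP replicate 1 was nearer to the inputs than to the other ChIP libraries. The folds in this window, placed in steps of 10 bp, were 1.62, 3.93 and 3.88. In the strongest fixed window of Esr1, the kind used for calls, they were lower, at 1.07, 3.20 and 3.38. The window placed in steps of 10 bp held an ERE with 2 mismatches at chr10:4632221-4632233. At a threshold of 3-fold, Esr1 had 1 site and Esr2 had 3, the added one beyond the end of that gene. The count over the genome rose as well, from 4019 sites at 4-fold to 6344, with 0.0731% of all windows called against 0.0444%. The added window of Esr2, chr12:76110019-76110218, had folds of 2.37, 4.75 and 3.34, of which only ChIP replicate 2 was over 4-fold, and it lay in the last exon of the neighbouring gene Syne2, which encodes a nuclear envelope protein. Just inside the threshold was the second fixed window of the Esr2 intronic site (3.73, 4.89 and 4.11). Its first fixed window (4.10, 6.66 and 5.71) and that of Gper1 (4.03, 6.87 and 6.68) were near 4-fold in ChIP replicate 1 alone. Both were called on ChIP replicates 2 and 3 without it.

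The corticoid receptor genes had lower strongest windows. That of Nr3c1 lay in an intron, 58.4 kb from the gene start, with folds of 2.54, 3.62 and 1.18 in ChIP replicates 1, 2 and 3. Its signal in ChIP replicate 3 was 0.460, near the 0.360 and 0.420 of the inputs. That of Nr3c2 lay 4.48 kb upstream of the gene start, with folds of 1.90, 3.15 and 1.304 and a signal of 0.6999, 1.16 and 0.480 against 0.310 and 0.280. At both genes the ChIP libraries lay above the inputs, but at Nr3c1 ChIP replicate 3 did so by a small margin. At Nr3c2 both inputs were below the genome mean of 0.368, so the folds there were taken over that floor. These windows were picked as the highest of loci with 1044 and 2228 fixed windows, so a fold above 1 was built into their choice. Of all protein-coding gene loci, 49.97% had a strongest fixed window with a lower mean fold than that of Nr3c1 and 41.0% than that of Nr3c2. The share was 61.2% for Esr1, 85.0% for Gper1 and 89.4% for Esr2. Locus length was not taken into account in these shares, and a longer locus has more windows from which the highest is picked. For Nr3c2 the strongest fixed window was chr8:76934201-76934400, inside the gene, and not the upstream window described above.

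**Figure D3:**
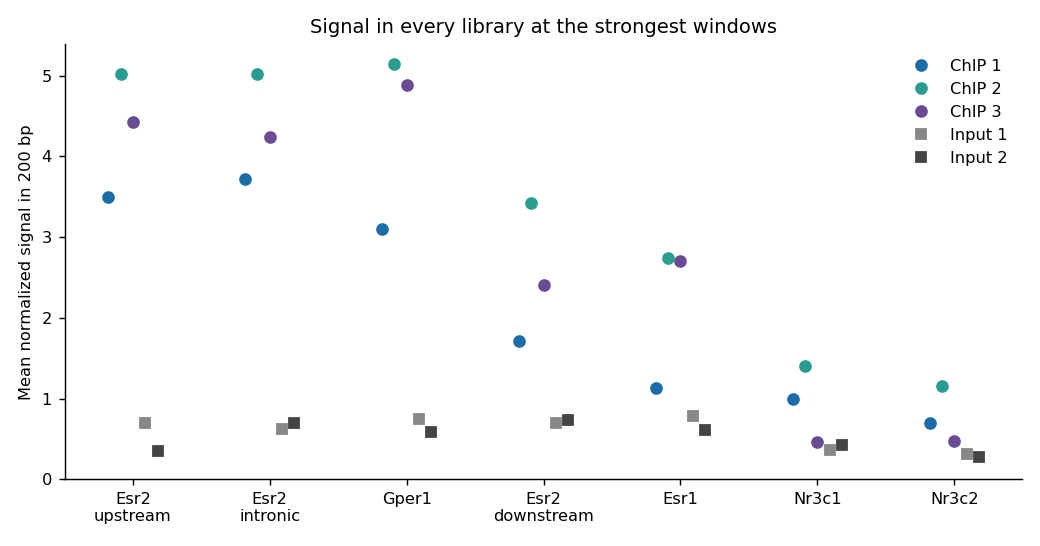
Mean normalised signal (y axis) in the strongest 200-bp windows of the receptor genes (x axis), 1 point for each library, with circles for ChIP and squares for input. At the Esr2 upstream, Esr2 intronic and Gper1 windows each ChIP library is above 3, and each input is below 0.8. These windows were chosen for a high ratio of ChIP to input.

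Further sites lay beyond the 50-kb limit. With a flank of 100 kb, 6 sites were counted, of which 3 were new. A wider flank takes in more windows at every gene. The share of all gene loci with a site at this flank was not counted, so the new sites are a description only. The Esr1 one was at chr10:4530791-4530990, 80.7 kb upstream of the start of Esr1 and in intron 5 of Ccdc170. Its folds were 5.11, 4.21 and 5.26 in ChIP replicates 1, 2 and 3. The Esr2 one was at chr12:76046721-76046920, in an intron of Syne2 and 130.4 kb downstream of the start of Esr2, with folds of 5.67, 8.40 and 8.58. The Nr3c1 one lay between genes, 62.3 kb upstream of the start of Nr3c1, with folds of 4.80, 5.57 and 4.06. Each of these 3 had an ERE with 2 mismatches. Nr3c2 remained without a site.

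The heights were ordinary for a site in these data. Over all 5684 called windows, the median of the mean fold was 5.94. The upstream window of Esr2 exceeded 67.1% of them and that of Gper1 48.7%, while those of the intronic site exceeded 42.4% and 11.6%. At a threshold of 8-fold, no fixed window was called in the 5 loci, against 1248 sites from fixed windows in the genome. This 0 depended on where the windows were placed, since the window at the upstream site of Esr2 that was moved in steps of 10 bp was over 8-fold in ChIP replicates 2 and 3.

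**Figure D4:**
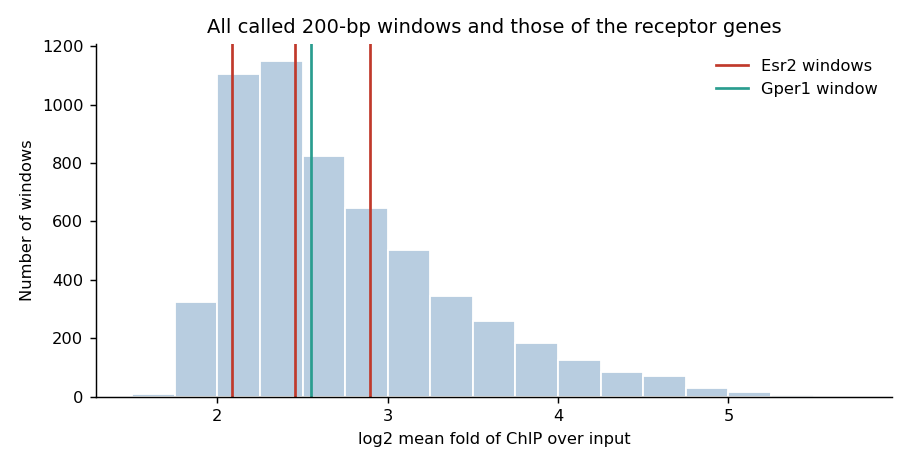
Number of called 200-bp windows in the genome (y axis) by log2 of their mean fold over input (x axis), with vertical lines at the 3 Esr2 windows and the Gper1 window. The 4 lines fall in the body of the distribution, around the median fold of 5.94.

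To read the folds in a library that had not been used for the call, windows were called from each pair of ChIP libraries and measured in the third. In ChIP replicate 1, the 4 windows so called had folds from 3.73 to 6.26, with a median of 4.06, and 3 of 4 were over 4-fold. In ChIP replicate 2, 3 windows had folds from 6.66 to 8.69 (median 6.87), and in ChIP replicate 3, 3 windows had folds from 5.71 to 7.38 (median 6.68). All of these were over 4-fold. Over the genome, the median was 5.52, 7.66 and 7.25 in the same order, with 75.0%, 94.0% and 89.3% of windows over 4-fold. The medians of the receptor gene windows were thus below those of the genome in each library, a description from 3 or 4 windows. The inputs were the same in calling and reading.

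To test ChIP against input, limma was fitted to log2(signal + 0.5) in 1-kb windows across the genome. At an adjusted p under 0.05, 2 of 1384 windows in the receptor gene loci were higher in ChIP, against 0.0957% of all 2430674 windows. Both belonged to Esr2. The 1-kb window with the upstream site had a signal of 1.28, 1.66 and 1.53 in the ChIP libraries and 0.581 and 0.359 in the inputs. Its log2 difference was 1.04 (SE 0.181, limma adjusted p = 0.00189). The window with the intronic site had 1.33, 2.09 and 1.71 in the ChIP libraries and 0.591 and 0.681 in the inputs. Its log2 difference was 0.95 (SE 0.193, limma adjusted p = 0.0180). ChIP and input did not overlap in either window, which the choice of the sites favoured.

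Both calls were lost when ChIP replicate 2 was left out. Without ChIP replicate 2 the adjusted p from limma was 0.0582 for the upstream and 0.337 for the intronic window. Without Input replicate 1 it was 0.0117 and 1.000, and without Input replicate 2 it was 1.000 and 0.342. With 1 input left, the spread came from the ChIP libraries alone, and the lone input was assumed to vary as they did. The log2 differences stayed between 0.83 and 1.21 in these fits.

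The Gper1 site was not called on this scale. Its 1-kb window had 0.960, 1.38 and 1.57 in the ChIP libraries and 0.715 and 0.602 in the inputs. The groups did not overlap, which the choice of the site favoured. How many of all 1-kb windows showed no overlap was not counted, so this is a description only, as it is for the Esr2 windows. The log2 difference was 0.62 (SE 0.185, limma adjusted p = 0.558). The 1-kb window around the strongest window of Esr1 had a difference of 0.28 (SE 0.181, limma adjusted p = 0.964). No 1-kb window of the 5 loci was lower in ChIP by the same test, against 0.00267% of all windows. At an unadjusted p under 0.05 from limma, 10 of the 1384 windows were higher and 67 lower. Over the genome, 46256 and 80925 of 2430674 were. As shares, fewer of the receptor gene windows were higher and more were lower than over the genome, which is a description only. The site rule and this test used the same contrast, so the test adds no independent evidence for the sites.

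No promoter of the receptor genes differed between ChIP and input beyond the threshold. The promoter was taken as 1 kb upstream to 100 bp downstream of the gene start, and limma was run over all 21755 protein-coding genes. None of the 5 was called in either direction, against 0.0046% of all promoters (1 gene). At an unadjusted p under 0.05, 2 of the 5 were lower in ChIP, and over all promoters 356 were higher and 1731 lower.

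The promoter of Esr2 had a signal of 0.495, 0.443 and 0.533 in ChIP replicates 1, 2 and 3, and 1.10 and 0.896 in the inputs. Each ChIP library was below each input, with a log2 difference of -0.59 (SE 0.1398, limma adjusted p = 0.515). The promoter of Esr1 had 0.273, 0.455 and 0.267 in the ChIP libraries and 0.612 and 0.709 in the inputs. It too did not overlap between groups, with a log2 difference of -0.49 (SE 0.148, limma adjusted p = 0.515). The share of all promoters without overlap was not counted, so the lack of overlap is a description only. For scale, the median promoter of all protein-coding genes had a log2 difference of -0.12, and 97.4% of promoters had a larger value than Esr1 and 99.5% than Esr2. The size depended on the settings, with -0.84 for Esr1 and -0.89 for Esr2 at a pseudocount of 0.1, -0.32 and -0.42 at a pseudocount of 1, and -0.35 for each from 1 kb upstream to 1 kb downstream.

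At the other 3 promoters, ChIP and input values were mixed. Nr3c1 had 0.289, 0.359 and 0.462 in the ChIP libraries and 0.382 and 0.339 in the inputs, with a log2 difference of 0.01 (SE 0.118, limma adjusted p = 0.987). Its sign turned in 4 of 10 alternative fits, with the lowest value at -0.06. Nr3c2 had a log2 difference of -0.09 (SE 0.150, limma adjusted p = 0.808) and Gper1 of -0.14 (SE 0.177, limma adjusted p = 0.746). Single libraries set the size of both, which for Nr3c2 was -0.0055 without ChIP replicate 1 and -0.17 without ChIP replicate 2, and for Gper1 -0.0033 and -0.25. 

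**Figure D5:**
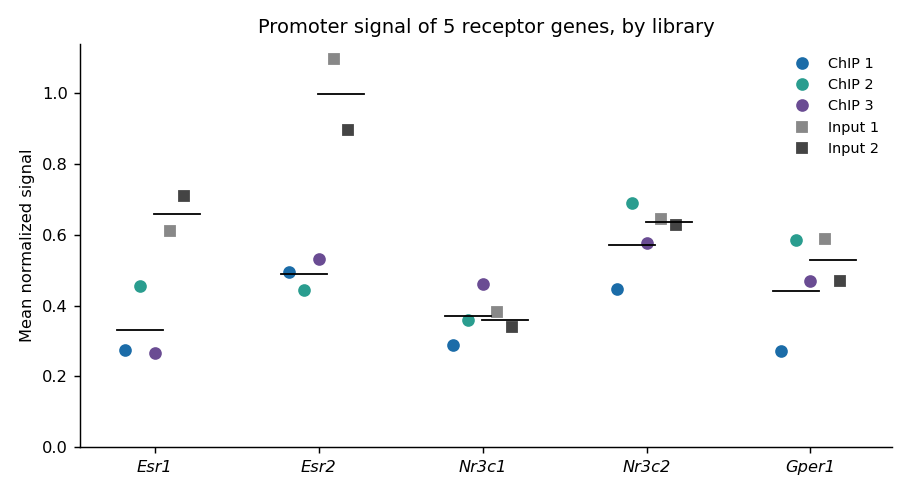
Mean normalised signal (y axis) from 1 kb upstream to 100 bp downstream of the start of each receptor gene (x axis), 1 point for each library and a line at each group mean, with circles for ChIP and squares for input. The inputs of Esr1 and Esr2 lie above all 3 ChIP libraries, and the groups overlap for the other 3 genes. How often all promoters show no overlap was not counted.

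Averaged over the whole locus, ChIP and input were close. The mean signal was between 0.375 and 0.490 in the ChIP libraries and between 0.394 and 0.540 in the inputs over the 5 loci. No locus was called by limma, and 0% of all 21755 protein-coding gene loci were. At an unadjusted p under 0.05, limma had 1516 loci higher and 3747 lower. Gper1 had the largest difference of the 5, with a locus mean of 0.375, 0.431 and 0.490 in the ChIP libraries and 0.530 and 0.540 in the inputs. Its log2 difference was -0.15 (SE 0.055, limma adjusted p = 0.202). Without ChIP replicate 3 the difference was -0.20 (limma adjusted p = 0.00449), in a fit that called 49.4% of all loci. With the replicate block it was also -0.20 (limma adjusted p = 0.00265), in a fit that called 44.4% of all loci. In the other 4 genes the log2 difference was between -0.07 and -0.03, against a median of -0.05 over all loci.

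Genes of the same pathway were counted by the site rule from lists chosen for their function. Of 4 related receptors, 2 had a site. Esrrg, an orphan estrogen-related receptor, had 2 sites with a strongest window of 18.6-fold, and Pgr, the progesterone receptor, had 1 with 3.90-fold. Of 8 chaperones and co-chaperones, which hold steroid receptors ready to bind hormone, 3 had a site. They were Hspa8 (27.5-fold), Fkbp4 (7.87-fold) and Fkbp5 (7.15-fold), the last with 4 sites. Of 7 enzymes that make or inactivate ligands, 3 had a site. They were Cyp19a1 (11.2-fold), which makes estrogen, Hsd17b1 (7.48-fold), which makes estradiol, and Hsd11b2 (12.8-fold), which inactivates glucocorticoids. The strongest fixed windows of Esr2 (7.44-fold) and Gper1 (5.86-fold) were lower than those of Esrrg, Hspa8, Fkbp4, Cyp19a1, Hsd17b1 and Hsd11b2, and that of Fkbp5 lay between them. These windows could lie anywhere in the gene body or its 50-kb flanks, and the data do not link them to the genes. Those of Hspa8, Hsd11b2 and Hsd17b1 lay upstream of the gene, and those of Esrrg and Pgr beyond its end. Those of Fkbp4, Fkbp5 and Cyp19a1 lay inside the gene. With 4 to 8 genes in a list, the shares of 37.5% to 50% were not tested against each other or against 23.9% of all loci.

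The genes most like Esr2 and Gper1 were taken as those whose strongest fixed window had the nearest log2 folds over the 3 ChIP libraries. For Esr2 these were Fam214b and Unc13b, which share a single window, chr4:43083201-43083400, with folds of 5.99, 8.54 and 7.33 (Euclidean distance 0.0684). For Gper1 these were Cryl1 and Ift88, which share chr14:57407801-57408000, with folds of 4.09, 6.99 and 6.80 (distance 0.0449). The likeness is over 3 values and says nothing further about these genes.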

How the data were processed

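ERβ ChIP-seq tracks of mouse ovary (3 ChIP, 2 input libraries) were used, and sample titles gave groups and replicate numbers. Per the methods, the authors aligned reads with STAR to GRCm38 (mm10) without spliced alignment, kept unique reads and used HOMER. STAR and HOMER versions are not given in the sources used here. The deposited values are coverage signal, scaled by the authors to an equal library total, in 1 file for each library. Their genome means were 0.362 to 0.370. Depth is unknown from the files, and averaging over segments of variable length smooths narrow peaks. Fold, sites and windows were computed here with Python 3.11.15 and NumPy 2.4.6. The 1-kb windows (mean signal of at least 0.1), promoters and gene loci were tested with limma 3.58.1 (lmFit, eBayes with trend) in R 4.3.3. The values were log2(signal + 0.5), and the added 0.5 understates changes at low signal. Benjamini-Hochberg adjustment was made over all features. Annotation was GENCODE vM21. The scripts were tested on simulated data. Alternatives in thresholds, flanks, floors, pseudocounts, filters, left-out libraries, a replicate block and a track-name batch term were run. Members and lists were chosen with earlier results of these data known. Genes named were the members, list genes with a site, genes holding or near a site and the 2 genes most like each member with a site.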

Additional observations from a re-analysis of the deposited data

How the results depend on the processing

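The number of sites in the 5 loci was 3. With windows at fixed positions it was 5 at 3-fold, 0 at 8-fold and 6 with a flank of 100 kb, and within 1.5 times the main count under the other 11 alternatives. Leaving out any 1 library gave 3 each time, and windows at steps of 10 bases, a setting added once the data had been seen, also gave 3. The median held-out fold of 6.46 was 7.78 without Input replicate 1 and 5.27 without Input replicate 2; with a calling fold of 8 no window was left to give a value. The 2 higher 1-kb windows became 0 without ChIP replicate 2, 1 without Input replicate 1 and 0 without Input replicate 2, so that leaving out a library gave 0 to 2; no alternative gave a lower window.

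The ChIP and input libraries share replicate numbers 1 and 2, which is too few pairs to treat them as paired. The deviations of same-numbered libraries from their group means had correlations of 0.04 and -0.01 over 1-kb windows. With the replicate block, 2 windows of the receptor genes were higher, and over the genome 3428 were higher and 3209 lower, against 2326 and 65 without it. The replicate block called 1 gene locus (Gper1, log2 difference -0.20, limma adjusted p = 0.00265), as did the fit without ChIP replicate 3 (1, leaving out the others giving 0). Over all genes, those fits called 9656 and 10757 loci, against 0 with all libraries and no block. The cause was not tested. No promoter of the 5 genes was called in any fit, and over all genes 1 promoter was called with all libraries and 1 to 25 in the alternatives. The promoter of Nr3c1 reversed from 0.01 to -0.063 without ChIP replicate 3 and -0.063 in the replicate block, to -0.025 without Input replicate 2 (range over left-out libraries -0.063 to 0.080) and to -0.0024 with the track-name batch term; its gene body alone reversed from -0.03 for the locus to 0.0026. The ERE count was 1 of 3 sites with at most 1 mismatch and in 400 bp.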
